A study of Mus musculus with 15 samples.

Results

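Cytochrome P450 genes were followed across mouse lung tumours that lack Rb and p53, tumours that also lack p130, and normal lung. The genes were chosen by symbol alone: every measured gene named Cyp followed by digits, a letter and digits, such as Cyp1a1 or Cyp4b1. The rule found 70 genes among the 18193 genes measured, and each was read from the brightest of its probe sets. The 70 genes carry 93 probe sets, and 18 of them have more than 1. P450 genes whose only probe sets also list another gene are not analysed here.

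The 10 Rb/p53 tumours (genotype RbΔ/Δ; p53 Δ/Δ) came from mice given adenovirus that expresses Cre recombinase through the nose and kept for 8 to 12 months. The 3 Rb/p53/p130 tumours, with p130 Δ/Δ in addition, came from mice infected the same way and kept for 6 months. The 2 normal lungs came from wild-type, tumour-free adult mice, given no virus as far as the labels say. All RNA was amplified in 2 rounds. The labels give neither the promoter that drives Cre nor whether each tumour came from its own mouse, so p-values measure the spread between these samples. The series presents them as a model of small cell lung cancer, and the tumours were dissected, with no statement on how much other lung tissue they hold. Values are log2 levels after RMA, a summary of all probes of a set after normalisation between arrays, so a difference of 1 is a factor of 2.

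The Rb1 probe set read 10.05 and 10.34 in normal lung and 10.98 to 12.19 in the Rb/p53 tumours, and was called higher than lung in both tumour groups (1.31 ± 0.27, SE, adjusted p = 0.00154 and 1.56 ± 0.31, adjusted p = 0.00192; limma). The Rbl2 (p130) probe set was called lower than lung in both, also in the Rb/p53 tumours, whose label lists no p130 deletion (-0.91, adjusted p = 0.0178 and -0.96, adjusted p = 0.0391; limma). It differed by -0.05 ± 0.23 between the tumour genotypes (limma adjusted p = 0.972). Whether these probe sets lie in the deleted exons is not given, so they do not check the genotypes, and group names are those of the labels. All 7 measured neuroendocrine markers, which define small cell lung cancer, were higher in both tumour groups than in normal lung (limma, adjusted p under 0.05). A level of 5.05 or less is called low here (the largest of the 15 arrays' lower quartiles). By that measure 37 of the 70 P450 genes were above the low level in normal lung, beside 83.3% of all genes. The count was 33 in the Rb/p53 tumours and 37 in the Rb/p53/p130 tumours, and 28 were low in all 3 groups. Of the tumour groups, only Rb/p53/p130 had Cyp1a2, Cyp2b9, Cyp2c29, Cyp2c70 and Cyp3a25 above the level by its mean. Each of these was highest in tumour 12. Cyp2c29, for example, read 10.26 in tumour 12 but 4.44 and 4.36 in tumours 11 and 13.

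P450 enzymes are haem proteins that insert an oxygen atom into their substrate, with electrons handed over by a reductase in the endoplasmic reticulum or by ferredoxin in mitochondria. Families 1 to 3 mostly act on drugs and foreign chemicals, family 4 on fatty acids and eicosanoids, and higher families on steroids, sterols, bile acids, vitamin D and retinoic acid. In the mouse lung, club cells of the airway are the classic site of Cyp2f2, Cyp2b10 and Cyp4b1, and Cyp1a1 is the textbook target of the aryl hydrocarbon receptor (Ahr). Hepatocytes carry many members of the 2c, 2d and 3a subfamilies as well as Cyp1a2 and Cyp2e1.

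Promoter windows of the genes on which the results turn are shown from RefSeq (assembly GRCm38.p6), each running from 250 bases before to 50 after the start. Cyp1a1 and Cyp1a2 are neighbours on chromosome 9, of which Cyp1a1 fell in the tumours and Cyp1a2 was raised in tumour 12 alone, Cyp1b1 is the remaining member of their family, and Cyp2c29 and Cyp2e1 led the liver-type genes of a single tumour. Windows were found for 51 of the 70 genes. Capitals mark matches on either strand to the core that the aryl hydrocarbon receptor binds, GCGTG, and to a TATA box, TATAAA. A part of the site of the hepatic factor HNF1, GTTAAT, was also searched on both strands and is absent from these windows. The windows lie at chr9:57697363-57697662 (plus strand) for Cyp1a1, chr9:57683606-57683905 (minus) for Cyp1a2, chr17:79715012-79715311 (minus) for Cyp1b1, chr19:39286835-39287134 (plus) for Cyp2c29 and chr7:140763569-140763868 (plus) for Cyp2e1.
Cyp1a1: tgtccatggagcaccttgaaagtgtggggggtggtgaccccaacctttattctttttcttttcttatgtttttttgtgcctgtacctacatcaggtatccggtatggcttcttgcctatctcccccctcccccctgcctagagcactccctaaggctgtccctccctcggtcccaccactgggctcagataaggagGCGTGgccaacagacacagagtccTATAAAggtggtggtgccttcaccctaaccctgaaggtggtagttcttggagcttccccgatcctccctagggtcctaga
Cyp1a2: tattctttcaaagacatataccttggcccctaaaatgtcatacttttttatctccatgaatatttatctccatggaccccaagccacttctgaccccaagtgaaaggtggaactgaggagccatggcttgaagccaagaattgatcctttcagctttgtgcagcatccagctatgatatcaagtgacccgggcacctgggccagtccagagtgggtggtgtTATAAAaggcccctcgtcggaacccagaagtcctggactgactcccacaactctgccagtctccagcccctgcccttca
Cyp1b1: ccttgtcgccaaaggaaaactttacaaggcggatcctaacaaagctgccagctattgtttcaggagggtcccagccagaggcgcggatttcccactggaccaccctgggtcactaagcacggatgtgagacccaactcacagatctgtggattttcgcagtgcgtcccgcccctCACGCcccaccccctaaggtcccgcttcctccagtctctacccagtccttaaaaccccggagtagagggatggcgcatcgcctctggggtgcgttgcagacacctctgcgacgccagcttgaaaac
Cyp2c29: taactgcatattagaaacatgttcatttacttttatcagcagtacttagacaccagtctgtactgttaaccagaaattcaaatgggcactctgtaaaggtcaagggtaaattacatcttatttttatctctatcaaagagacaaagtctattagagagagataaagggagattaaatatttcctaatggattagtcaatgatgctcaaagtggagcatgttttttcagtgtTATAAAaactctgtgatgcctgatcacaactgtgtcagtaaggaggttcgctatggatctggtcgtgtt
Cyp2e1: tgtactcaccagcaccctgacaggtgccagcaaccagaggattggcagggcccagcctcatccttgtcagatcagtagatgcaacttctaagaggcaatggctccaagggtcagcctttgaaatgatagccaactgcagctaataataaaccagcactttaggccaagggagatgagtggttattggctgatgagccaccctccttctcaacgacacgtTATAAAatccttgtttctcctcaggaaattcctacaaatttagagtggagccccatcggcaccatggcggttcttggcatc
Of all 27025 genes with a window, 35.2% held GCGTG, 15.7% TATAAA and 8.24% GTTAAT in at least 1 window. Among the 51 P450 genes with a window, 13 had GCGTG, 21 had TATAAA and 3 had GTTAAT in at least 1 window. A match is a string of letters, not a bound site.

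Against normal lung, 19 of the 70 P450 genes were lower in the Rb/p53 tumours and 0 were higher (limma with Benjamini-Hochberg adjustment over all probe sets, adjusted p under 0.05). That is 27.1% of the P450 genes, beside 38.8% of all genes called in either direction, 20.5% called lower and 18.3% called higher. The median log2 change was -0.22 over the P450 genes and -0.02 over all genes. In the Rb/p53/p130 tumours 16 were lower and 0 higher, or 22.9% beside 30.9% of all genes called, 15.6% lower and 15.3% higher. Their median change was -0.12, beside -0.02 over all genes. Both comparisons use the same 2 normal lungs, so they are not independent. In bulk samples, fewer cells of a type and less RNA per cell cannot be told apart.

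**Figure D1:**
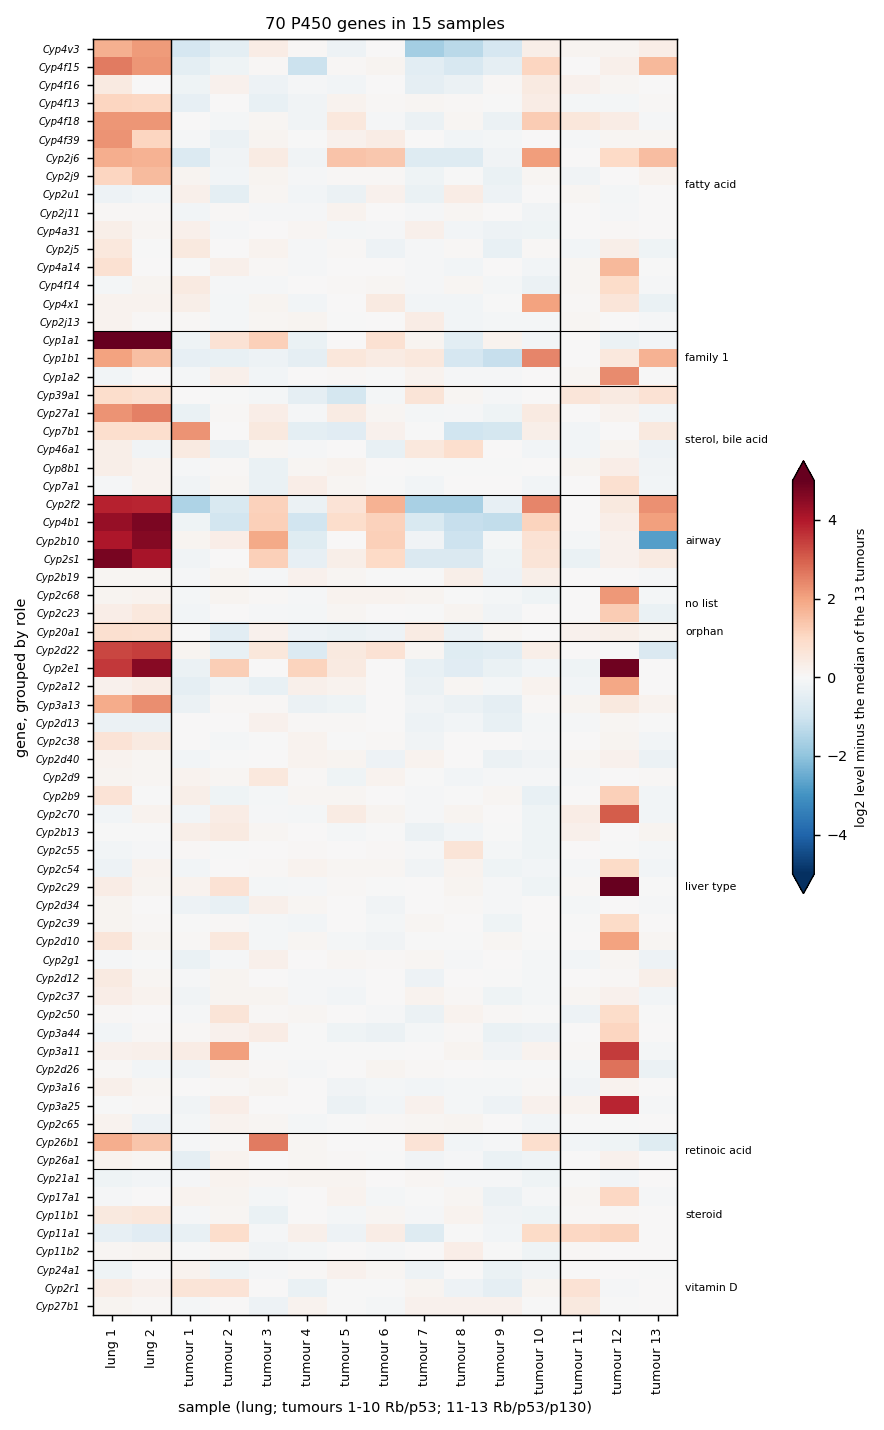
Each row is a P450 gene and each column a sample, grouped by role; colour is the log2 level minus that gene's median over the 13 tumours, limited to 5 either way. The leading airway, family 1 and fatty acid genes are red in both lungs, and 17 of the 27 liver-type genes are highest in tumour 12 among the tumours.

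The airway enzymes fell in the tumours. Of the 5 measured genes on this list, 4 were lower in the Rb/p53 tumours and 3 in the Rb/p53/p130 tumours, and the fifth, Cyp2b19, was low everywhere. Of all genes, 20.5% and 15.6% were called lower in these comparisons. Cyp2f2, which activates naphthalene in club cells, read 14.71 and 14.69 in normal lung and between 9.24 and 13.30 (median 10.53) in the Rb/p53 tumours. Every tumour lay below both lungs, and the spread among tumours was wide. The change was -3.85 ± 0.96 (SE; 14.4-fold lower, adjusted p = 0.00603); without normal lung 1 the limma adjusted p was 0.0616, and without normal lung 2 it was 0.0576. In the Rb/p53/p130 tumours Cyp2f2 read 10.87, 11.37 and 13.16, a change of -2.90 ± 1.13 that did not pass the threshold (adjusted p = 0.0755); without tumour 13 it was -3.58 with an adjusted p of 0.0483 (limma).

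Cyp4b1, which oxidises fatty acids and activates plant toxins in the lung, read 13.44 and 13.78 in normal lung. It ran from 7.88 to 10.27 (median 8.59) in the Rb/p53 tumours and was 9.09, 9.42 and 11.14 in the Rb/p53/p130 tumours, all below both lungs. The fall was 24.4-fold in the former (log2 -4.61 ± 0.72, adjusted p = 0.000168) and 13.3-fold in the latter (-3.73 ± 0.85, adjusted p = 0.00446; limma).

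Cyp2s1, a P450 of airway and skin epithelium, read 12.70 and 12.06 in normal lung. Its levels in the tumours were 7.21 to 9.13 (median 7.86) in Rb/p53 and 7.63, 8.15 and 8.39 in Rb/p53/p130, again without overlap with lung. The change was -4.34 ± 0.44 (20.3-fold, adjusted p = 3.15e-06) and -4.32 ± 0.52 (adjusted p = 2.39e-05; limma). Cyp2b10, the phenobarbital-responsive member of family 2, read 12.38 and 12.90 in lung and 7.27 to 10.20 (median 8.40) in the Rb/p53 tumours, a 16.9-fold fall (-4.08 ± 0.71, limma adjusted p = 0.000424). Tumours 11 and 12 read 8.24 and 8.54, whereas tumour 13 read 5.56, although tumour 13 was the highest of its group in Cyp2f2, Cyp4b1 and Cyp2s1. The Rb/p53/p130 change was -5.19 ± 0.84 (36.5-fold, limma adjusted p = 0.000322). The 3 Cyp2b10 probe sets gave the same call, but members of the 2b subfamily are near-identical and the probe set may read more than 1 of them.

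Club cell markers were measured beside these enzymes. The mean of the 8 club cell markers was 12.17 and 12.73 in lung, 8.87 to 11.95 in the Rb/p53 tumours and 10.58 to 11.85 in the Rb/p53/p130 tumours. Of the 8, 3 were lower in the Rb/p53 tumours and 1 in the Rb/p53/p130 tumours (limma), beside 20.5% and 15.6% of all genes. Scgb1a1, the secretoglobin that defines club cells, was not called and read 15.20 and 15.19 in lung and 13.75 to 14.97 in the Rb/p53 tumours. Its values in lung are the highest on either lung array (15.20 and 15.19), so it lies at the top of the scale, where a difference can be understated. Alveolar type 2, ciliated and endothelial markers were lower in 6 of 8, 7 of 7 and 10 of 10 measured genes in the Rb/p53 tumours. Their part in the P450 changes was not tested.

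**Figure D2:**
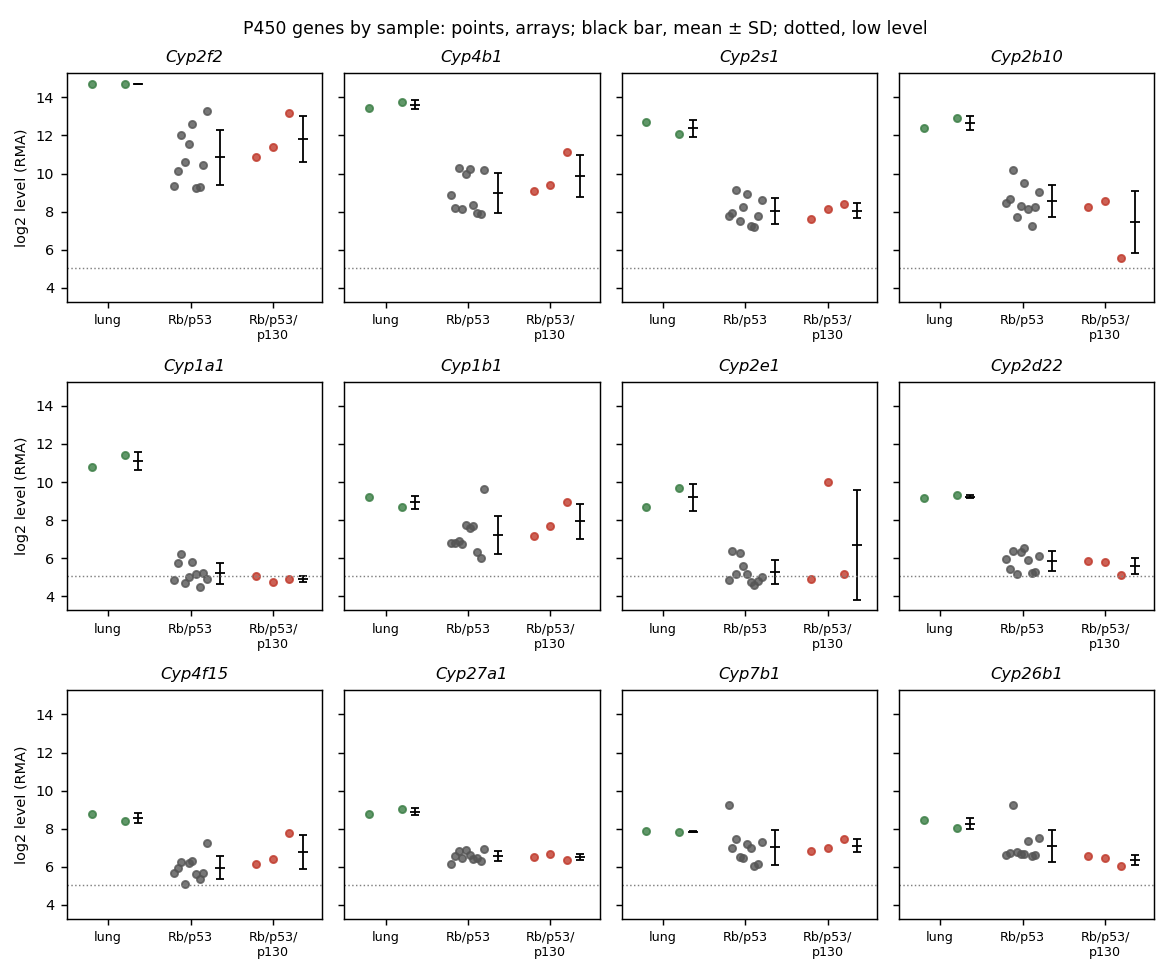
Log2 levels of 12 P450 genes in each sample, with mean ± SD beside the points (2 lungs, then 10 tumours of the Rb/p53 and 3 of the Rb/p53/p130 genotype) and the low level of 5.05 as a dotted line. Cyp1a1 reads 10.77 and 11.42 in the lungs and 4.51 to 6.22 in the 13 tumours, while Cyp2f2 and Cyp4b1 spread widely between tumours.

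Cyp1a1 had the largest fall of the 70 P450 genes in both comparisons with lung. It read 10.77 and 11.42 in normal lung, 4.51 to 6.22 (median 5.11) in the Rb/p53 tumours and 5.07, 4.74 and 4.91 in the Rb/p53/p130 tumours. Every tumour lay below both lungs, and most were near the low level. The change was -5.88 ± 0.36 (58.9-fold, adjusted p = 1.93e-08) in Rb/p53 and -6.19 ± 0.42 (at least 65.9-fold, adjusted p = 9.8e-08) in Rb/p53/p130 tumours, by limma.

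The other 2 members of family 1 were not called in either comparison. Cyp1b1, which hydroxylates oestradiol and is made by mesenchymal cells, read 9.19 and 8.70 in lung, 6.02 to 9.62 (median 6.86) in the Rb/p53 tumours and 7.18, 7.69 and 8.93 in the Rb/p53/p130 tumours. Tumour 10 was above both lungs and the other 9 Rb/p53 tumours were below. The change of -1.72 ± 0.68 did not pass (adjusted p = 0.067), and without tumour 10 it was -1.99 with an adjusted p of 0.00454; 1 of its 2 further probe sets was called lower (limma). Cyp1a2, a liver enzyme that clears caffeine, was at the low level in both lungs (4.63 and 4.81) and at 4.64 to 5.03 in the Rb/p53 tumours, but read 7.15 in tumour 12 against 4.88 and 4.74 in tumours 11 and 13. Its neighbour Cyp1a1 read 4.74 in tumour 12.

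Genes for the receptor of this family were also measured. Ahr read 11.81 and 11.67 in lung and 8.19 to 10.72 in the Rb/p53 tumours, a change of -2.35 ± 0.49 (limma adjusted p = 0.00175), and 10.13, 10.32 and 10.83 in the Rb/p53/p130 tumours (-1.31, adjusted p = 0.118, not called). Its partner Arnt fell by 0.70 on the log2 scale in the Rb/p53 tumours (limma adjusted p = 0.0124). In the Rb/p53/p130 tumours Arnt changed by -0.55, overlapped lung and was not called (limma adjusted p = 0.1). The regulators Ahrr, low in all 3 groups, and Tiparp were called in neither comparison.

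Most liver-type enzymes of families 2 and 3 were near the low level in these lungs and tumours: 15 of 27 were low in all 3 groups and 9 of 27 were above it in normal lung. Among the 27, 4 fell in the Rb/p53 tumours and 3 in the Rb/p53/p130 tumours, with 0 higher in either. Beside these counts, 20.5% and 15.6% of all genes were called lower and 18.3% and 15.3% higher. Cyp2e1, which oxidises ethanol, read 8.70 and 9.69 in lung and 4.61 to 6.38 (median 5.10) in the Rb/p53 tumours, a 15.2-fold fall (-3.93 ± 0.92, limma adjusted p = 0.00419). Without normal lung 2 its limma adjusted p was 0.0767. The Rb/p53/p130 tumours read 4.93, 10.02 and 5.16, so tumour 12 stood above both lungs and the group change of -2.49 ± 1.09 was not called (adjusted p = 0.114), whereas without tumour 12 it was -4.15 (adjusted p = 0.00012; limma).

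Cyp2d22, the lung-expressed member of the 2d subfamily, read 9.18 and 9.30 in lung, 5.15 to 6.56 (median 5.94) in the Rb/p53 tumours and 5.84, 5.82 and 5.10 in the Rb/p53/p130 tumours. It fell 10.5-fold (-3.40 ± 0.35, adjusted p = 3.51e-06) and 12.6-fold (-3.65 ± 0.41, adjusted p = 1.25e-05; limma). The other 6 P450 genes placed in its cluster on chromosome 15 had lung means of 3.93 to 5.35. Cyp2d13, which was not among those placed, had 5.69. Cyp3a13, the 3a member expressed outside the liver, read 5.95 and 6.46 in lung, 3.68 to 4.17 in the Rb/p53 tumours and 4.26, 4.59 and 4.31 in the Rb/p53/p130 tumours, at least 2.23-fold lower in both (limma adjusted p = 7.63e-08 and 4.79e-06). Cyp2c38 fell at least 1.40-fold and 1.39-fold, the latter with an adjusted p of 0.0552 by limma without normal lung 1.

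Of 16 fatty acid and arachidonate enzymes, 6 were lower in each tumour group and 0 higher. For all genes the shares in the Rb/p53 and Rb/p53/p130 tumours were 20.5% and 15.6% lower, and 18.3% and 15.3% higher. Cyp4f15 read 8.75 and 8.39 in lung and 5.11 to 7.24 (median 5.82) in the Rb/p53 tumours, and fell 6.15-fold (-2.62 ± 0.45, limma adjusted p = 0.000394). In the Rb/p53/p130 tumours it read 6.16, 6.41 and 7.77 (-1.79 ± 0.53, adjusted p = 0.0228). This last call was lost without either lung, tumour 11 or tumour 12 (limma adjusted p from 0.0686 to 0.152). Cyp4v3, an omega-hydroxylase of fatty acids, read 10.18 and 10.53 in lung, 6.69 to 8.77 in Rb/p53 and 8.54 to 8.73 in Rb/p53/p130 tumours, 5.43-fold and 3.36-fold lower (limma adjusted p = 0.000539 and 0.0214). The latter call was lost without either lung, tumour 11 or tumour 12 (limma adjusted p from 0.0556 to 0.132).

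Cyp4f18, a leukotriene hydroxylase of neutrophils and other myeloid cells, read 7.71 and 7.68 in lung and 5.21 to 6.77 in the Rb/p53 tumours, 4.28-fold lower (adjusted p = 0.000112). It read 6.07, 5.88 and 5.43 in the Rb/p53/p130 tumours, 3.74-fold lower (limma adjusted p = 0.00141). Its second probe set changed by -0.30 in both comparisons and was not called (limma adjusted p = 0.0888 and 0.173). Beside Cyp4f18, the mean of the 3 measured neutrophil markers was 9.19 and 9.22 in lung. That mean was 5.88 to 9.50 in the Rb/p53 and 5.98 to 6.88 in the Rb/p53/p130 tumours. The part of neutrophils was not tested. Cyp4f39 fell 3.13-fold and 3.05-fold, Cyp4f13 fell 2.12-fold and 2.15-fold, and Cyp2j9, an epoxygenase of arachidonate, fell at least 2.35-fold and 2.31-fold in the Rb/p53 and Rb/p53/p130 tumours. All adjusted p were at most 0.000595 (limma). Cyp4f16, in the same chromosome 17 cluster as Cyp4f13, Cyp4f15 and Cyp4f39, changed by -0.30 ± 0.19 (limma adjusted p = 0.26) and was not called. Cyp2j6 ranged from 4.24 to 7.00 in the Rb/p53 tumours beside 6.71 and 6.64 in lung, so the groups overlapped. Its change of -1.49 ± 0.65 was not called (adjusted p = 0.0991), though it passed without tumour 10 (-1.69, adjusted p = 0.0299) and its second probe set was called lower in both comparisons (limma).

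Among 6 enzymes of cholesterol, oxysterol and bile acid metabolism, 2 fell in the Rb/p53 tumours and 1 in the Rb/p53/p130 tumours. Of all genes, 20.5% and 15.6% were called lower there. Cyp27a1, the mitochondrial sterol hydroxylase, read 8.75 and 9.02 in lung, 6.17 to 6.95 (median 6.52) in the Rb/p53 and 6.51, 6.68 and 6.35 in the Rb/p53/p130 tumours. The fall was 5.01-fold (-2.32 ± 0.19, adjusted p = 2.59e-07) and 5.19-fold (-2.38 ± 0.22, adjusted p = 1.67e-06; limma), though its second probe set, dim on all arrays, was not called. Cyp39a1, an oxysterol hydroxylase, read 9.64 and 9.52 in lung and 7.90 to 9.44 in the Rb/p53 tumours, 1.85-fold lower (adjusted p = 0.0133). Without either lung the limma adjusted p was 0.123 or 0.0741. It read 9.37, 9.24 and 9.49 in the Rb/p53/p130 tumours and was not called. Cyp7b1, an oxysterol and steroid hydroxylase, read 7.86 and 7.85 in lung and 6.02 to 9.25 (median 6.99) in the Rb/p53 tumours, with tumour 1 above both lungs. Its change of -0.82 ± 0.57 was not called (adjusted p = 0.316), but without tumour 1 it was -1.06 with an adjusted p of 0.0268 (limma).

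Retinoic acid breakdown was represented by 2 genes. Cyp26b1, which clears retinoic acid, read 8.48 and 8.06 in lung, 6.55 to 9.27 (median 6.72) in the Rb/p53 tumours and 6.55, 6.47 and 6.05 in the Rb/p53/p130 tumours. Tumour 3 alone exceeded both lungs. The Rb/p53 change of -1.20 ± 0.52 was not called (adjusted p = 0.0986), whereas without tumour 3 it was -1.44 with an adjusted p of 0.000436. The Rb/p53/p130 change of -1.92 ± 0.62 was called (adjusted p = 0.0339), but leaving out any single lung or tumour of that comparison gave limma adjusted p from 0.0606 to 0.193. Cyp26a1 was at the low level in all 3 groups.

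Of 5 steroid hormone enzymes, Cyp11b1 alone was called lower in both comparisons, beside 20.5% and 15.6% of all genes called lower. Its lung mean of 5.06 was barely above the low level (5.02 and 5.09 in the 2 lungs). It read 4.19 to 4.71 in the Rb/p53 tumours, below that level, so no fold is given. In the Rb/p53/p130 comparison its call was lost without each of the 5 samples in turn (limma adjusted p from 0.0505 to 0.128). Cyp11a1, which starts steroid synthesis from cholesterol, read 5.09 and 4.92 in lung, 4.84 to 6.45 in the Rb/p53 tumours and 6.53, 6.59 and 5.49 in the Rb/p53/p130 tumours. The Rb/p53/p130 difference of 1.20 ± 0.44 was not called (adjusted p = 0.0587); without tumour 13 it was 1.56 with an adjusted p of 0.0205, and its 2 other probe sets gave -0.23 and -0.28 (limma). None of the 3 vitamin D enzymes was called; Cyp2r1, which makes the storage form of vitamin D, had the smallest p in the Rb/p53 comparison, with -0.25 ± 0.27 (limma adjusted p = 0.533). Cyp20a1, whose substrates are little known, read 10.45 and 10.41 in lung and 9.10 to 10.07 in the Rb/p53 tumours, 1.84-fold lower (limma adjusted p = 0.00246), with its 2 other probe sets not called.

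The 51 P450 genes not called in the Rb/p53 comparison had changes from -1.72 (Cyp1b1) to 0.58 (Cyp11a1), and the 54 not called in the Rb/p53/p130 comparison had changes from -2.90 (Cyp2f2) to 1.72 (Cyp2c29). Groups that did not overlap numbered 22 of the 70 P450 genes between the Rb/p53 tumours and lung, all lower, beside 38.4% of all genes (18.2% higher and 20.2% lower), and 31 between the Rb/p53/p130 tumours and lung, 27 lower and 4 higher, beside 66.0% of all genes (32.8% higher and 33.2% lower). The signal ratio of 3' to 5' Gapdh control probe sets, a measure of RNA integrity, differed with the groups: its log2 value was 0.88 and 0.72 in the lungs and -0.07 to 0.36 in the tumours. The same log2 ratio for actin was 1.99 and 1.33 in the lungs and 0.50 to 1.35 in the tumours, so there the groups overlapped. With the Gapdh value as a covariate, 4 P450 genes were called in each lung comparison (Cyp1a1, Cyp27a1, Cyp3a13 and Cyp4f13 in both), and Cyp1a1 changed by -4.53 in the Rb/p53 tumours (limma adjusted p = 0.00606). With the same covariate the change was -3.98 ± 2.37 (adjusted p = 0.402) for Cyp2f2, -3.41 ± 1.75 (adjusted p = 0.322) for Cyp4b1 and -2.97 ± 1.02 (adjusted p = 0.127; limma) for Cyp2s1. The Gapdh measure and the groups cannot be told apart, since both lungs lie above the tumour range.

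Genes that work with P450 enzymes were measured as well. Beside the counts below, 20.5% of all genes were called lower and 18.3% higher in the Rb/p53 tumours. In the Rb/p53/p130 tumours these shares were 15.6% and 15.3%. Of 6 electron transfer genes, 3 were lower in the Rb/p53 tumours: Cyb5a, a cytochrome b5, with a log2 change of -1.99, Fdx1, a mitochondrial ferredoxin, with -0.68, and Pgrmc1 (limma adjusted p at most 0.00959). In the Rb/p53/p130 tumours 2 of the 6 were lower. Of 3 measured P450 enzymes named outside the symbol rule, 2 were called lower in each tumour group by limma. Ptgis, the prostacyclin synthase, fell 7.91-fold and 12.5-fold in the Rb/p53 and Rb/p53/p130 tumours. Tbxas1, the thromboxane synthase, fell 1.35-fold and 1.44-fold. The third, Cyp51, changed by -0.41 and -0.19 and was not called (limma adjusted p = 0.19 and 0.663). Of 24 other enzymes of oxidation and conjugation, 21 fell in the Rb/p53 and 19 in the Rb/p53/p130 tumours; the largest changes in the Rb/p53 tumours were in Sult1d1 (at least 47.7-fold), Ces1f (at least 23.8-fold) and Aox3 (28.5-fold). Of 21 regulators, 9 were lower and 2 higher in the Rb/p53 tumours; Rarb, a retinoic acid receptor, fell by 2.46 and Nr0b2, a corepressor of bile acid control, rose by 2.49 (limma adjusted p = 0.00499 and 0.000112). In the Rb/p53/p130 tumours 6 of the 21 were lower and 2 higher.

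Between the tumour genotypes 0 of the 70 P450 genes were called by limma, beside 0.0715% of all genes (0.022% higher and 0.0495% lower), and 10 (14.3%, beside 7.26% of all genes) had an unadjusted p under 0.05, all higher in Rb/p53/p130. Without tumour 12 this count was 3. The rank-sum test also called 0, with 4 at an unadjusted p under 0.05. Cyp3a13 alone had groups that did not overlap (4.26 to 4.59 against 3.68 to 4.17), beside 1.97% of all genes (1.1% higher and 0.868% lower), and both groups lay at the low level. Cyp2c29 (1.91 ± 0.84, limma adjusted p = 0.458) and Cyp2e1 (1.43 ± 0.78, adjusted p = 0.585) had the largest differences, did not pass, and were high in tumour 12 alone. Cyp39a1, with 0.67 ± 0.21, did not pass either (limma adjusted p = 0.259).

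Tumour 12, an Rb/p53/p130 tumour, had the highest level of the 13 tumours in 27 of 70 P450 genes (38.6%), beside 3.8% of all genes. It stood at least 1 log2 unit above each other tumour in 12 of 70 (17.1%), beside 0.401% of all genes. No other tumour was highest in more than 9 P450 genes or stood that far above the rest in more than 1. This is 1 sample, so there is no test.

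Cyp2c29, a major hepatic 2c enzyme, read 10.26 in tumour 12 and 5.12 in tumour 2, the next highest, with a median of 4.38 over the other 12 tumours. That is 35.2-fold above tumour 2. Cyp2e1 read 10.02, against 6.38 in tumour 2 (12.4-fold). Both lungs read 4.53 to 4.73 in Cyp2c29 and 8.70 to 9.69 in Cyp2e1, so tumour 12 exceeded lung in both.

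The other genes at least 1 unit above were Cyp3a25 (7.62, next 4.15, at least 5.95-fold), Cyp2c70 (7.89, next 5.29), Cyp2d26 (6.66, next 4.15), Cyp1a2 (7.15, next 5.03), Cyp2c68 (7.80, next 5.81), Cyp2a12 (7.88, next 6.21), Cyp2d10 (6.03, next 4.53), Cyp3a11 (7.30, next 5.87), Cyp4a14 (5.55, next 4.20) and Cyp2c23 (5.32, next 4.19). They are hepatic enzymes of drug, steroid and fatty acid oxidation. The next highest tumour was tumour 2 in 8 of the 12. Of the 12, 10 have a promoter window and 8 of those held TATAAA, beside 21 of the 51 P450 genes and 15.7% of all genes with a window. GTTAAT was in 2 of the 10, beside 3 of the 51 and 8.24% of all genes. GCGTG was in 1 of the 10, beside 13 of the 51 and 35.2%.

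Not every liver-type gene was high in tumour 12. Of the 27, 17 were highest there and 8 by at least 1 unit, while Cyp2c55, Cyp2c65, Cyp2d9 and Cyp2d12 read 4.79, 3.71, 5.20 and 4.08, within the range of the other tumours. In the 2c cluster on chromosome 19, Cyp2c29, Cyp2c68 and Cyp2c70 stood at 10.26, 7.80 and 7.89, whereas Cyp2c37 and Cyp2c38 read 4.23 and 5.11. None of the 5 airway genes was highest in tumour 12, where Cyp2f2 and Cyp2s1 read 11.37 and 8.15. Hepatocyte markers moved with these genes. Their mean over 14 measured genes was 9.23 in tumour 12, 6.83 in tumour 2, 5.28 to 6.05 in the other 11 tumours and 5.06 and 5.14 in the lungs; 13 of 14 were highest in tumour 12, and 10 by at least 1 unit. Alb, albumin, read 13.75 in tumour 12, 9.73 in tumour 2 and 5.42 and 5.34 in lung. The part of hepatocyte RNA in these P450 levels was not tested.

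**Figure D3:**
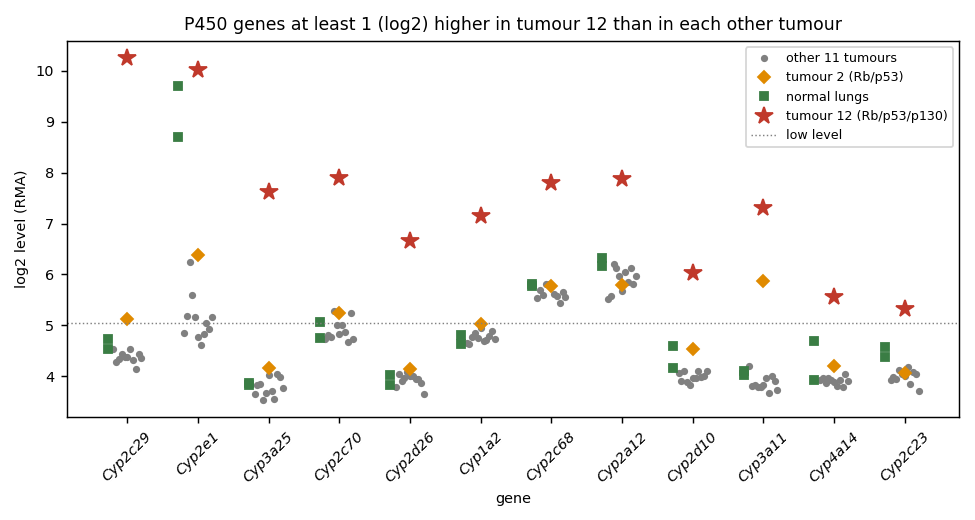
Log2 levels of the 12 P450 genes that stood at least 1 unit above every other tumour in tumour 12 (star), with tumour 2 (diamond), the 11 other tumours (dots), both lungs (squares) and the low level of 5.05 (dotted line). Cyp2c29 reaches 10.26 in tumour 12 and 5.12 in tumour 2.

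Among the 10 Rb/p53 tumours the median SD of the P450 genes was 0.20, beside 0.28 over all genes; 28 of the 70 are low in all groups. An SD above 1 was seen in 4, beside 3.64% of all genes: Cyp2f2 (1.46), Cyp4b1 (1.05), Cyp1b1 (1.02) and Cyp2j6 (1.00), followed by Cyp7b1 (0.92). From lowest to highest tumour, Cyp2f2 differed 16.6-fold, Cyp1b1 12.2-fold and Cyp7b1 9.38-fold. The highest tumour was tumour 10 in 7 of the 20 most variable P450 genes, tumour 3 in 6 and tumour 2 in 3, and the lowest was tumour 8 in 7.

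Several variable genes were set against cell-type marker means across the 10 Rb/p53 tumours, 6 relations in all with permutation tests. Cyp2f2 rose with the mean of the club cell markers (Pearson r = 0.825, permutation p = 0.0026, adjusted 0.0156; Spearman rho = 0.879, adjusted p = 0.00804). Without tumours 7 and 10, the farthest from the median of the marker mean, r was 0.66 and did not pass (permutation p = 0.0762). Leaving them out also narrows the range of the marker mean, so the lower r does not show that the relation rests on those tumours. Cyp2f2 was set against no other marker list. It was highest in tumours 3, 5, 6 and 10 (11.55 to 13.30). These had the highest alveolar type 2 (12.01 to 12.38) and endothelial (7.78 to 8.45) marker means. The other Rb/p53 tumours had at most 10.89 and 7.15. Cyp4b1 (r = 0.621), Cyp2s1 (r = 0.596) and Cyp2b10 (r = 0.353) against the club cell markers did not pass (permutation, adjusted p = 0.135, 0.135 and 0.319; rho 0.37, 0.515 and 0.333). Cyp1a1 against endothelial markers gave r = 0.536 and 0.047 without tumours 3 and 6 (permutation p = 0.112 and 0.912). Cyp1b1 against fibroblast markers gave r = 0.532 (rho 0.588, permutation adjusted p = 0.135) and 0.851 without tumours 4 and 9 (adjusted p = 0.0048). The tumours share their platform and amplification, and a marker mean is itself a set of RNA levels from the same array.

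**Figure D4:**
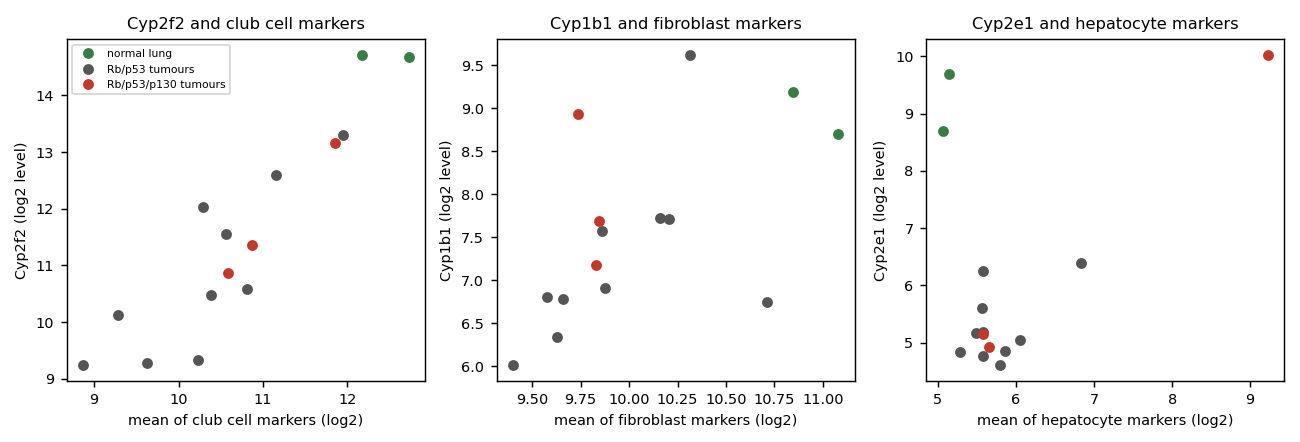
Log2 level of a P450 gene (vertical) against the mean log2 level of a cell-type marker list (horizontal), 1 point per sample, coloured by group. Cyp2f2 rises with the club cell markers over the 10 Rb/p53 tumours (r = 0.825, and 0.66 without tumours 7 and 10). Tumour 12 lies alone at the upper right for Cyp2e1 and hepatocyte markers.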

How the data were processed

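The authors deposited 1 table of log2 levels, made with RMA, with a value for each probe set on each array, per the submitters' processing notes (no version given). RNA was isolated with Trizol and amplified in a pair of rounds with a RiboAmp kit, per the labels' protocols; amplification favours 3' ends. RMA sets the arrays' distributions nearly equal (medians 6.58 to 6.68), which hides any shift common to most genes. After removal of 64 control probe sets from 45101, 45037 were tested; 34945 had 1 gene symbol, 932 several and 9160 none. Arrays have no read depth, and their number limits the precision.

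The 3 groups were fitted together in limma 3.58.1 (R 4.3.3; lmFit, eBayes), with Benjamini-Hochberg adjustment over all probe sets and a threshold of 0.05. Errors of changes are SE. A fold against a group at the low level of 5.05 is "at least". No gene was filtered out. Named were the 8 strongest called changes per comparison, the 8 genes with the highest lung mean, the 5 most variable, the 8 highest in tumour 12 and called genes of each role list, or its smallest p; other genes named were chosen after their values were seen. Of 95 genes on the role lists 68 were measured, and 2 P450 genes are on none. The members and lists were chosen with earlier results of these data known. Correlations used 100000 permutations (scipy 1.17.1). A planned relation for Cyp2a5 could not be computed, as that gene has no probe set of its own. limma was tested on simulated data. Alternatives were another normalisation, probe-set rules, a brightness filter, a Gapdh 3'/5' covariate, other priors, the compared groups alone, a rank-sum test, a replicate block and leaving out each replicate. Replicate numbers 1 and 2 occur in both normal lungs and Rb/p53 tumours, but deviations of same-numbered samples correlated at -0.004 and -0.055, so they share only a number.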

Additional observations from a re-analysis of the deposited data

Results flagged for a closer look

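Within the 10 Rb/p53 tumours, 14 of the 70 P450 genes had 1 tumour set apart from the other 9 by a gap large for the group's range (Dixon's test at the 95% level) and chance flags about 5% of groups. By the same test 8.81% of all 18193 genes had such a tumour. The 14 P450 genes come from mixed groups, and most lie at or near the low level.

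Tumour 2 was the highest in Cyp2c29 (5.12, next 4.54), Cyp2c50 (4.83, next 4.35), Cyp2d10 (4.53, next 4.11), Cyp3a11 (5.87, next 4.20) and Cyp4a14 (4.20, next 3.97), all hepatic enzymes. Tumour 10 was the highest in Cyp1b1 (9.62, next 7.73), Cyp4f18 (6.77, next 6.00) and Cyp4x1 (6.04, next 4.51). Tumour 3 was the highest in Cyp26b1 (9.27, next 7.51) and Cyp2d9 (5.73, next 5.37), and the lowest in Cyp8b1 (4.74, next 5.00). Tumour 1 was the highest in Cyp7b1 (9.25, next 7.47), tumour 7 in Cyp2j13 (4.38, next 4.12) and tumour 8 in Cyp2c55 (5.45, next 4.88).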

How the results depend on the processing

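Of the 70 P450 genes, 19 were called in Rb/p53 tumours against lung. With probe sets brighter than the median alone, 10 of 14 tested were called (fewer genes tested), with the Gapdh covariate 4, and by the exact rank-sum test 0 (two-sided; 10 against 2 samples allow p of 0.0303 or more; 22 at an unadjusted p under 0.05). Leaving out 1 sample gave 17 to 21, and the replicate block 18 called, 15 of them among the 19; the numbers share no more than a label. In Rb/p53/p130 tumours against lung, 16 were called: 7 of 14 with the brightness filter, 4 with the covariate, 0 by the exact rank-sum test (0 unadjusted, since 3 against 2 allow no p below 0.2), and 11 to 17 without 1 sample. Between genotypes each setting run called 0. With the covariate Cyp26b1 reversed to 0.66 in Rb/p53/p130 tumours against lung (adjusted p = 0.838, limma). Without 2 tumours, the correlations moved to 0.66 for Cyp2f2 (adjusted permutation p = 0.229) and 0.851 for Cyp1b1. Tumours 2 and 12 left out together, chosen after seeing the data, gave 22, 14 and 0 called. The count of 12 genes in tumour 12 was 11 to 13 under other probe-set rules. The causes were not tested. The 2 lungs limit every comparison with them.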

Other observations

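None of the 21 measured regulators of P450 genes stood at least 1 log2 unit above the other tumours in tumour 12. Hnf4a, the hepatic nuclear receptor, and Foxa3, its partner factor, were highest in tumour 1, at 9.62 and 8.28. In tumour 12 Hnf4a read 6.66, above every tumour but tumour 1 (next 6.33 in tumour 2), and between the 2 lungs (6.73 and 5.83). Foxa3 read 5.26 there, within the 5.12 to 5.40 of the Rb/p53/p130 tumours. Nr1i3, the receptor that drives Cyp2b10 in liver, read 4.84 in tumour 12 and at most 4.69 in the other tumours, all at the low level. Among other oxidation and conjugation genes, Ugt2b34 alone stood at least 1 log2 unit above every other tumour in tumour 12 (5.76, next 4.25). These genes come from the partner and regulator lists, and the values named were chosen after they were seen.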
